A study of Mus musculus with 8 samples.

Results

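The genes described here encode the proteins of the cytosolic ribosome, measured in mouse splenic CD4 T cells with and without the aryl hydrocarbon receptor gene Ahr. They were chosen by symbol: Rpl or Rps followed by a digit, or Rplp0, Rplp1, Rplp2 and Rpsa. The start of the symbol matched 53 genes, and 5 were left out, 4 S6 kinase or kinase-like genes of the Rps6k series and 1 pseudogene. The remaining 48 genes of 12393 with a probe set of their own comprised 26 of the large and 22 of the small subunit. Among them, 42 had the symbol of a standard ribosomal protein and 6 were paralogue-like (Rpl3l, Rpl7l1, Rpl22l1, Rpl39l, Rps27l and Rps4l). RefSeq lists Rps4l as a transcribed pseudogene, and it was kept because the choice was by symbol.

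On this array a transcript is read by probe sets, each a series of short probes whose signals are summarised as 1 value. Each gene was represented by 1 probe set, the one with the highest mean over the arrays among those that named this gene and no other. A further 102 probe sets named a ribosomal protein gene together with another gene. For 30 ribosomal protein genes no other probe set was found, Rplp1, Rpl5, Rpl23 and Rpl3 among them, and these 30 are not reported by name.

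RNA was taken from CD4 T cells that had been isolated by FACS from the spleen of females, 8 to 12 weeks old. They were C57BL/6 wild type (WT) or AHR ko backcrossed to C57BL/6 (KO), a knockout not restricted to T cells. Both genotypes were injected intraperitoneally either with 10 µg/kg TCDD, a persistent high-affinity ligand of the receptor, in corn oil, or with DMSO as the solvent control, 24 h before the spleens were taken. The 4 groups had 2 Affymetrix arrays apiece, described as biological duplicates. A single array held the pooled RNA of 4 animals, so the spread between animals was not measured.

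Each ribosome joins ribosomal RNA and one copy of most ribosomal proteins, the acidic stalk proteins being present in more copies. The messenger RNAs of these proteins are abundant in nearly every cell and begin with a pyrimidine tract, the TOP motif, through which their translation follows mTOR signalling. Resting T cells enlarge their ribosome pool when they are activated. Ahr is a transcription factor that ligands such as TCDD send to the nucleus, where with its partner Arnt it binds DNA around the core GCGTG.

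The promoters of 6 genes are shown as examples, picked with their KO and WT values known. Rps9 and Rps28 passed the test. Rpl22 and Rpl22l1 had the largest lower values in KO, and Rplp0 and Rpl41 were among the 7 genes higher in all KO arrays. Rpl22, Rpl22l1, Rplp0 and Rpl41 did not pass. The sequences are RefSeq's for assembly GRCm38.p6, 60 bases before the annotated start and 20 bases from the start onward. Capitals mark the run of at least 5 pyrimidines nearest the start.
Rps9, chr7:3703981-3704060, plus strand: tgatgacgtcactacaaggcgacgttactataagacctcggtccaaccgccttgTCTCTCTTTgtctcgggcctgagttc
Rps28, chr17:33824543-33824622, minus strand: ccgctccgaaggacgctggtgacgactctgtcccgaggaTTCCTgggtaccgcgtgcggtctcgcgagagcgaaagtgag
Rpl22, chr4:152324376-152324455, plus strand: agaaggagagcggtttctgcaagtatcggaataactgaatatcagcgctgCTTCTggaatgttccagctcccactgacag
Rpl22l1, chr3:28805448-28805527, plus strand: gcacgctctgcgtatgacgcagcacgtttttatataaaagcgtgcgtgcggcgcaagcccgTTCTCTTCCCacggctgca
Rplp0, chr5:115559407-115559486, plus strand: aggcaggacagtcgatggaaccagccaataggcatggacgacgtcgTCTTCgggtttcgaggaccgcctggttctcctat
Rpl41, chr10:128549149-128549228, minus strand: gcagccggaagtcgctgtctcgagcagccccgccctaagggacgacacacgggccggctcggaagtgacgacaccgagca

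In Rps9 the run of 9 pyrimidines crosses the annotated start, and in Rpl22l1 a run of 10 lies just after it. In Rps28, Rpl22 and Rplp0 the nearest run has 5 pyrimidines and ends before the start. The Rpl41 stretch has no such run but holds CCGGAA, the core bound by ETS-family factors. The Rps9 start used in this table lies 87 bases from the start of the gene model.

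Windows from 250 bases before to 50 after the start were found for 42 of the 48 genes, 50 windows in all because some genes have several starts. CCGGAA, searched on both strands, was in 28 of the 50 windows, 56.0%, against 14.9% of all 32851 windows in the table. AAGATGGC, the YY1 motif, was in 4 windows, 8.0% against 2.75%, and CACGTG, the E-box bound by Myc and Max, was in 5, 10.0% against 7.15%. The AhR core GCGTG was in 30 windows, 60% against 32.4%. A C at the annotated start followed by 4 pyrimidines was in 8 windows, 16.0% against 2.51%. Allowing that run to begin within 10 bases of the start, a choice made after the windows were seen, gave 28 windows, 56.0% against 30.7%. These letters were counted with no allowance for base composition, and a match is not evidence of binding.

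Expression is given on the log2 scale of the deposited values, on which a difference of 1 is a doubling. Of the 48 genes, 31 had a mean of 12 or more, 7 lay from 8.5 to under 12, and 10 were under 8.5. The means ran from 4.97 to 13.89, against a median of 6.13 over all probe sets and a highest single value of 14.61. Only 162 of the 22626 probe sets tested reached a mean of 12. The brightest probe sets belonged to Rpl13a, Rpsa and Rps28, and the dimmest to Rps4l, Rpl39l and Rpl3l. Brightness also depends on the probes, so these values do not rank the messenger RNAs. Rpl39l and Rpl3l are known mainly from testis and from striated muscle.

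Before the results, some features of the arrays need stating. For WT TCDD replicate 1 the free description speaks of the knockout, whereas the title, source and strain all give wild type, and these 3 labels were followed. The actin 3′ minus 5′ difference, a sign of RNA quality and amplification length, was 3.48 to 3.82 in KO and 2.90 to 4.56 in WT, highest on that same array and lowest on WT DMSO replicate 2. On the first principal component the WT arrays numbered 2 stood at 49.2 and 40.4, the other 6 arrays from -36.2 to 9.10. The 9 CD4 T cell markers measured had mean levels of 9.71 to 9.80 in KO and 9.66 to 9.93 in WT. Their KO minus WT differences were positive for 3 and negative for 6, with a median of -0.20, and none was called. They ran from -0.64 (Il7r) to 0.90 (Cd5), and for both of these genes the KO and WT arrays did not overlap. Of 18 myeloid and dendritic markers, 17 had a positive KO minus WT difference and 9 were called higher by limma, among them Irf8 (2.97), Tyrobp (2.48) and Cd68 (1.87), and their mean levels were 7.34 to 7.87 in KO against 6.45 to 6.60 in WT. Of 12 B cell markers, 9 were positive and 4 were called higher. These were the class II genes H2-Ab1, H2-Aa and H2-Eb1, and Cd74 (by 2.76), the invariant chain of class II. Mean levels of the 12 were 8.19 to 9.0 in KO against 7.45 to 7.86 in WT. Among the B cell markers not called, Ighm differed by 0.78, Jchain by 1.43 and Cd79b by 0.67, while Cd79a was at 5.59 in KO and 5.67 in WT. Of 10 natural killer and CD8 markers 7 were positive and 1, Nkg7, was called higher (mean levels 6.57 to 6.98 against 6.44 to 6.68). All 6 erythroid markers were positive, from 0.08 to 0.63, and none was called (6.11 to 6.57 against 5.91 to 6.31). In such bulk samples fewer cells of a type and less RNA per cell cannot be told apart. The part of these differences in the values below was not tested.

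The first comparison asked how the ribosomal protein messages differed between KO and WT cells, with TCDD and DMSO arrays pooled as in the series' own design, 4 arrays against 4. In the deposited values, normalised between arrays, the genes did not move as a block. In KO 29 were higher and 19 lower, with a median difference of 0.08. Only 58 of the 162 probe sets with a mean of 12 or more name no ribosomal protein gene. Normalisation can take away a shift shared by most of the brightest probe sets. A common rise or fall can therefore not be judged here or in the comparisons below. Rps9, a small-subunit protein at the channel where messenger RNA enters, rose by 0.55. Rps28, a small-subunit protein where messenger RNA leaves, fell by 0.39. These were the only 2 of 48 genes to pass limma at an adjusted p under 0.05 (Benjamini-Hochberg over all probe sets tested), against 2.79% of all probe sets, 1.59% higher and 1.20% lower. The share called was thus near the background.

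Differences ran from -0.94 to 0.64, and 41 of the 48 genes were within 0.5. The median absolute difference was 0.23, against 0.13 over all probe sets and 0.21 over the 58 probe sets with a mean of 12 or more that name no ribosomal protein gene. An unadjusted p under 0.05 was reached by 21 genes, 12 higher and 9 lower, which is 43.8% against 20.5% of all probe sets and 27.6% of those 58. All 4 KO arrays lay above all 4 WT arrays for 7 genes and below them for Rps28 alone. These 8 genes are 16.7% of the 48, against 12.3% of all probe sets, of which 5.67% lay above and 6.67% below. The median was 0.04 over the 22 standard large-subunit genes and 0.03 over the 20 standard small-subunit genes.

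**Figure D1:**
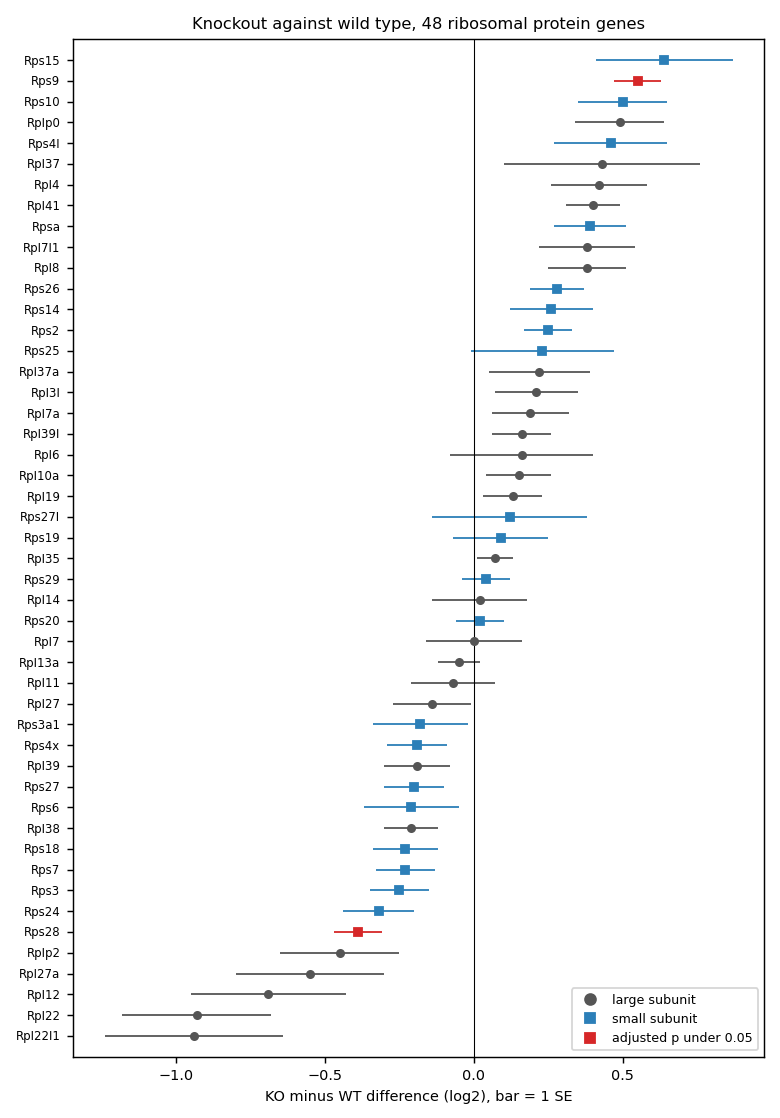
KO minus WT difference on the log2 scale (horizontal axis) for each of the 48 genes, as points with standard error bars, 4 arrays against 4. Rps9 and Rps28 are the genes that passed the adjusted test, 41 genes lie within 0.5 of 0, and Rpl22 and Rpl22l1 lie farthest to the lower side.

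Among small-subunit proteins, Rps9 read 12.25 and 12.11 on the WT DMSO arrays and 12.02 and 12.23 on the WT TCDD arrays. On the KO arrays it read 12.72 and 12.61 with DMSO and 12.77 and 12.71 with TCDD. Every KO array was above every WT array, and the means were 12.70 ± 0.07 and 12.15 ± 0.11 (SD, n = 4). The difference of 0.55 (SE 0.08) had an adjusted p of 0.0173 in limma, and an exact two-sided permutation p of 0.0286, the smallest that 70 arrangements allow. It was 0.48 with DMSO alone and 0.62 with TCDD alone. The call was lost without WT DMSO replicate 2 (adjusted p = 0.0538), without KO TCDD replicate 1 (0.0601) or without KO TCDD replicate 2 (0.0644). Without WT TCDD replicate 1, whose labels disagree, the difference was 0.51 (adjusted p = 0.0316).

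Rps28 read 13.54 and 13.65 on the WT DMSO arrays and 13.63 and 13.58 on the WT TCDD arrays. In KO it read 13.27 and 13.04 with DMSO and 13.30 and 13.23 with TCDD. Every KO array was below every WT array, at means of 13.21 ± 0.12 and 13.60 ± 0.05 (SD, n = 4). The difference was -0.39 (SE 0.08, limma adjusted p = 0.0428, exact permutation p = 0.0286), at -0.44 with DMSO and -0.34 with TCDD. Leaving out any single array of the 8 took the adjusted p above the threshold, to between 0.0548 and 0.122, and to 0.0591 without WT TCDD replicate 1, where the difference was -0.38. Its probe sets are among the brightest of the array.

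Rps15, a protein of the small-subunit head, had the largest higher value of the 48 genes, 0.64 (SE 0.23, adjusted p = 0.157). It read 13.02 and 12.20 on the WT DMSO arrays and 12.83 and 12.03 on the WT TCDD arrays, against 12.96, 12.98, 13.40 and 13.32 in KO. The low values were the WT arrays numbered 2, and the KO minus WT difference was 0.25 within the arrays numbered 1 and 1.04 within those numbered 2. KO and WT arrays of the same number were not taken as pairs, here or below. Rps10, which is ubiquitinated on collided ribosomes, followed the same layout, with WT at 12.75, 12.22, 12.66 and 12.15 in the same order. Its KO arrays, from 12.78 to 13.11, were all above WT, at a difference of 0.50 (SE 0.15, adjusted p = 0.116).

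Rpsa, the small-subunit protein also known as the laminin receptor, was at 13.68 ± 0.12 in KO and 13.30 ± 0.22 in WT (SD, n = 4), and Rps26 at 12.54 ± 0.15 and 12.26 ± 0.07. In both genes the groups did not overlap, while the adjusted p values were 0.118 and 0.132. Rps3, at the entry channel beside Rps9, had a difference in the other direction of -0.25 (adjusted p = 0.219), and Rps24 of -0.32 (0.182). Rps6, the S6 kinase substrate, differed by -0.21 (adjusted p = 0.506), and the KO value rested partly on 1 array at 8.16, the other 3 lying from 8.76 to 8.84. Rps19, the gene most often mutated in Diamond-Blackfan anaemia, differed by 0.09 (adjusted p = 0.803).

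In the large subunit, Rplp0 is the scaffold of the stalk that recruits elongation factors. It read 13.34, 13.30, 13.38 and 13.29 on the KO arrays, a spread of 0.04 (SD), while WT read 13.09 and 13.11 with DMSO and 12.39 and 12.75 with TCDD. KO lay above WT throughout, and the 2 WT TCDD arrays were the lowest. The difference was 0.49 (SE 0.15, adjusted p = 0.12), 0.22 with DMSO and 0.77 with TCDD. Its stalk partner Rplp2 was lower in KO by contrast, at -0.45 (adjusted p = 0.241). Rplp2 read 12.81 and 12.74 on the WT arrays numbered 1, 13.22 and 13.47 on those numbered 2, and from 12.31 to 12.86 in KO, so that the difference was 0.08 within number 1 and -0.97 within number 2. Rpl12, at the base of the stalk, was likewise -0.02 within number 1 and -1.36 within number 2, and -0.69 over all arrays (adjusted p = 0.183).

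Rpl41, a very short protein at the interface of the subunits, was at 12.96 ± 0.12 in KO and 12.56 ± 0.12 in WT (SD, n = 4). Its arrays did not overlap, with WT from 12.43 to 12.70 and KO from 12.78 to 13.04, and the difference of 0.40 (SE 0.09) had an adjusted p of 0.0578. Rpl8, near the peptidyl transferase centre, was also above WT on all KO arrays, by 0.38 (adjusted p = 0.138). Rpl4, which lines the exit tunnel, differed by 0.42 (adjusted p = 0.181), with 1 WT array at 13.04 inside the KO range. Rpl37 differed by 0.43 with a wide error (SE 0.33, adjusted p = 0.524), and Rpl27a by -0.55 (adjusted p = 0.259). Rpl11, which with Rpl5 can bind Mdm2 and so activate p53, differed by -0.07 (SE 0.14, adjusted p = 0.833).

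Rpl22 and its paralogue Rpl22l1 had the largest lower values. Rpl22 is needed for alpha-beta T cell development, and it is known to hold down Rpl22l1 by binding its message, so loss of one usually comes with more of the other. Rpl22 read 11.41 and 11.39 on the WT DMSO arrays and 10.92 and 11.53 on the WT TCDD arrays. In KO it read 10.36 and 10.56 with DMSO and 9.68 and 10.92 with TCDD, so the groups met at 10.92. The difference was -0.93 (SE 0.25), with an adjusted p of 0.085 and an exact permutation p of 0.0571, and it was similar with DMSO (-0.94) and TCDD (-0.92).

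Rpl22l1 differed by -0.94 (SE 0.30, adjusted p = 0.125). It read 10.04 and 10.81 on the WT DMSO arrays, 9.54 and 10.74 on the WT TCDD arrays, and 9.84, 9.15, 9.35 and 9.04 in KO. The WT arrays numbered 2 were the highest, and the difference was -0.20 within number 1 and -1.68 within number 2. In these cells the paralogues thus did not show opposite signs, and neither difference passed the adjusted test.

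The other paralogue-like genes were compared with their namesakes. Rpl7l1 differed by 0.38 (adjusted p = 0.225) and Rpl7 by 0.00. Rps27l, a p53 target, differed by 0.12 and Rps27 by -0.20. Rpl39l differed by 0.16 and Rpl39 by -0.19. Rps4l differed by 0.46 and Rps4x by -0.19, and Rpl3l by 0.21. None of these passed the test, and Rps4l, Rpl39l and Rpl3l lay below the median level of the array. Of the 6 paralogue-like genes 5 were higher in KO, with a median of 0.18.

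**Figure D2:**
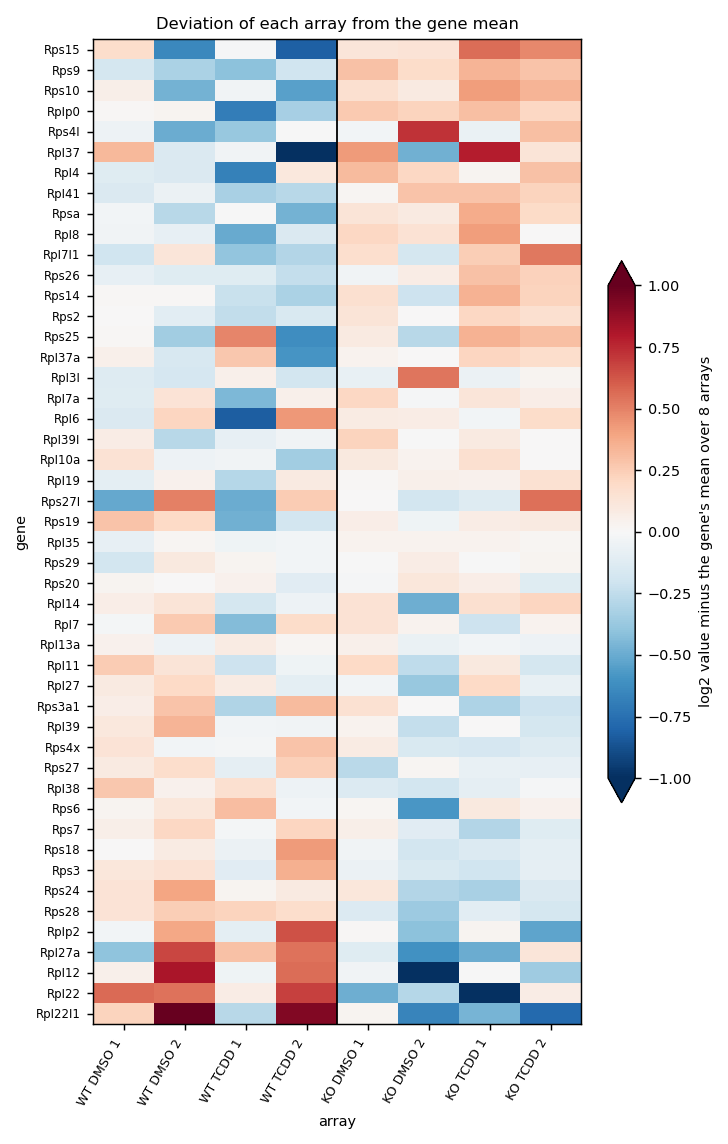
Deviation of each of the 48 genes (rows) from its own mean over the 8 arrays (columns), in log2 units on the colour scale. The WT arrays numbered 2 differ from the WT arrays numbered 1 for many genes, among them Rpl22l1, Rpl12 and Rplp2, which are higher there, and Rps15 and Rps10, which are lower.

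The replicate WT arrays differed from each other for many of these genes. On both arrays numbered 2, 20 genes were higher than on the array numbered 1 with the same treatment, 12 were lower and 16 were mixed. That is 41.7% higher and 25.0% lower, against 24.4% and 40% of all probe sets. Of the 8 genes with the largest lower values in KO, 6 were among the 20, and of the 8 with the largest higher values, 3 were among the 12. The deviations of the 48 genes from their own means had an SD of 0.32 and 0.38 on the WT arrays numbered 2, 0.18 and 0.27 on those numbered 1, and 0.15 to 0.31 in KO. Without both WT arrays numbered 2, which leaves fewer arrays, none of the 48 genes was called by limma, while the differences were 0.57 for Rps9 and -0.38 for Rps28.

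**Figure D3:**
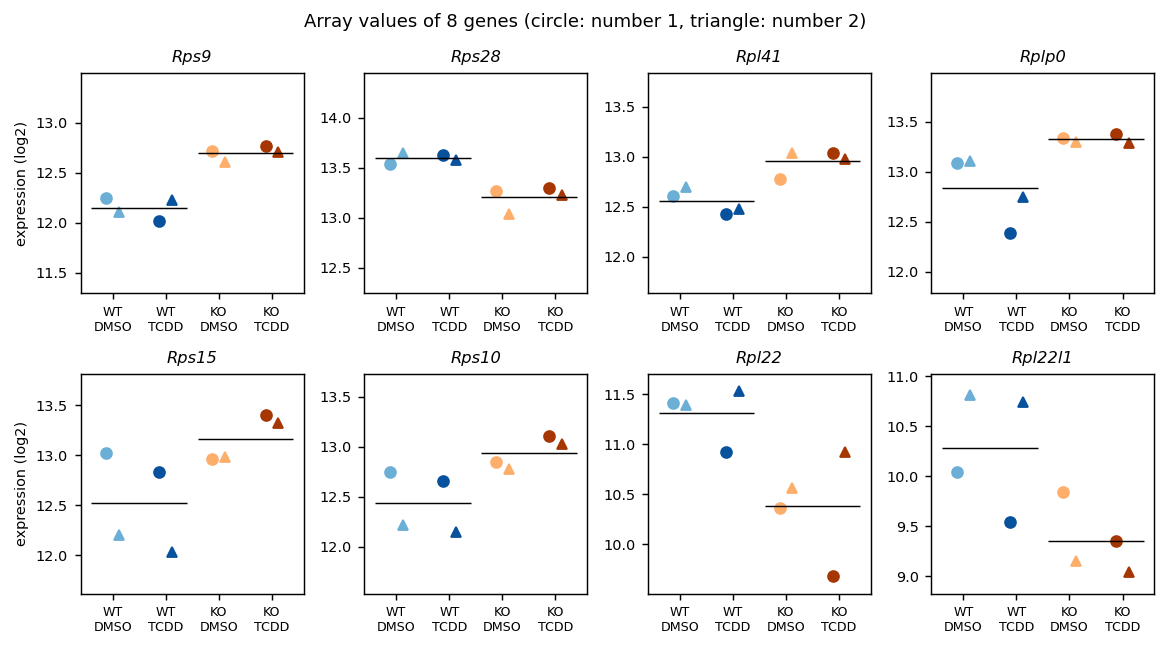
Log2 expression on each of the 8 arrays for Rps9, Rps28, Rpl41, Rplp0, Rps15, Rps10, Rpl22 and Rpl22l1, 1 point per array by group. Circles are number 1, triangles number 2, and lines the mean of 4 arrays of a genotype. The vertical axes do not start at 0. Rps9 and Rps28 separate KO from WT on every array, Rpl22 meets at 10.92, and Rpl22l1 is highest on the WT arrays numbered 2.

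The values of different probe sets of a gene were then compared. Whether their probes also match other transcripts, or are shared between probe sets of a gene, was not tested, so matching values are not independent support. The probe sets used for Rps9, Rps28, Rpl41 and Rps10, among others, carry the suffix _x_at. Affymetrix gives it to probe sets with probes that can also match other sequences, so these values may not be specific to the gene. Of the 23 genes with more than 1 probe set of their own, 12 had the same sign of the KO minus WT difference on all of them and 11 had both signs. Rps28 had 3 probe sets at -0.39, -0.36 and -0.34, with adjusted p values of 0.0428, 0.0445 and 0.0514. Rps9 was less uniform: its other bright probe set differed by 0.30 (SE 0.27, adjusted p = 0.604) and a dim one by -0.16 (adjusted p = 0.655), so the mean of all 3 differed by 0.23 with an adjusted p of 0.466. Rpl41 had 4 probe sets from 0.40 to 0.73 and none was called. Rps24 had 5 of 6 below 0, Rps10 ranged from -0.06 to 0.76 over 6, and Rpl13a from -0.39 to 0.29 over 4. The second probe set of Rpl22 differed by -0.28 (adjusted p = 0.519).

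Outside the choice of 1 per gene, 2 probe sets were called, the second one of Rps28 just given and one of Rpl37a. Rpl37a is a zinc-binding protein of the large subunit, and this probe set read 11.70, 11.69, 11.75 and 11.35 in WT against 12.20, 12.02, 12.42 and 12.46 in KO. The difference there was 0.65 (SE 0.13, adjusted p = 0.0405), while the brighter Rpl37a probe set gave 0.22 (adjusted p = 0.522). The 102 probe sets that name a ribosomal protein gene with other genes had a median of -0.03, from -0.84 to 0.72, and limma called 0 of them, while 23 had an unadjusted p under 0.05, 22.5% against 20.5% of all probe sets.

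**Figure D4:**
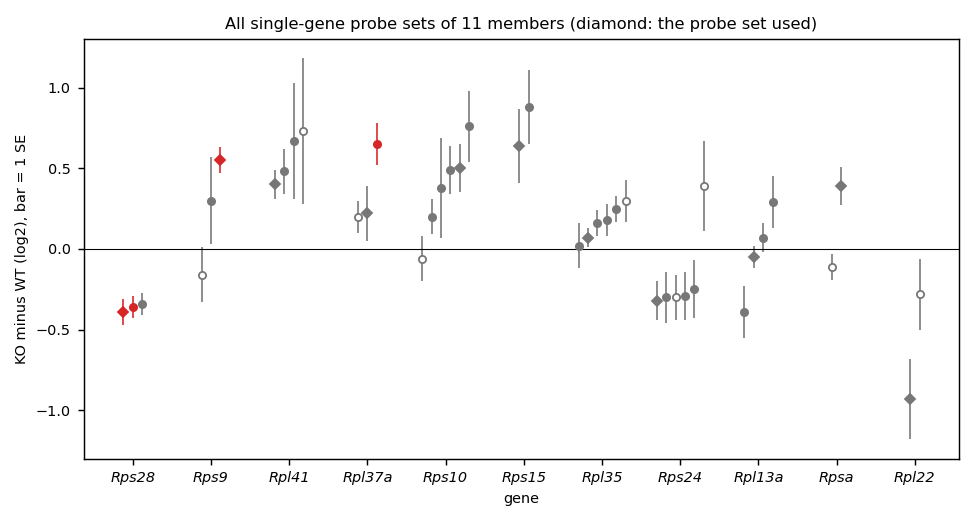
KO minus WT difference on the log2 scale for every single-gene probe set of Rps28, Rps9, Rpl41, Rpl37a, Rps10, Rps15, Rpl35, Rps24, Rpl13a, Rpsa and Rpl22. The other genes with more than 1 probe set of their own are not drawn. Diamonds are the probe sets used for the gene, open symbols have a mean level under 8.5, and red marks an adjusted p under 0.05. The 3 Rps28 probe sets lie together between -0.39 and -0.34, while those of Rps9 spread from -0.16 to 0.55.

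The next comparison asked what TCDD did within each genotype. In WT, 36 of the 48 genes were lower with TCDD, 75%, against 43.9% of all probe sets, and the median difference was -0.11 against 0.02. The shift was small and limma called 0 genes. No probe set of the array was called, a background of 0%, and 2 of the 48 genes had an unadjusted p under 0.05, 4.17% against 2.79% of all probe sets. Both TCDD arrays lay below both DMSO arrays for 12 genes, 25.0% against 10.8%, and above them for 0 genes, against 18.9%.

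Those 2 genes were Rps19 and Rplp0. Rps19 read 13.30 and 13.21 with DMSO and 12.53 and 12.83 with TCDD, a difference of -0.57 (SE 0.13, adjusted p = 0.997 in limma). Rplp0 differed by -0.53 (SE 0.14, limma adjusted p = 0.997). The other 10 genes low on both TCDD arrays were Rpl41, Rpl8, Rpl7l1, Rps14, Rps2, Rpl14, Rpl11, Rpl27, Rpl39 and Rps24. The largest difference was that of Rpl37, -0.61, with an SE of 0.44, and after Rps19 and Rplp0 came Rpl11 at -0.32. On the higher side, Rpl27a was at 0.28 (SE 0.39), Rps18 at 0.14, Rps25 at 0.10 and Rplp2 at 0.09.

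In the large subunit 19 of 22 standard genes were negative, with a median of -0.19, and in the small subunit 14 of 20, with a median of -0.06. The difference between the subunits was not tested. The 102 probe sets shared with other genes had 81 below 0 and a median of -0.09. Bright probe sets of other genes also leaned to the negative side: of the 58 with a mean of 12 or more that name no ribosomal protein gene, 40 were negative, with a median of -0.07. The median over the 48 genes was -0.03 without WT TCDD replicate 1, which had the highest actin 3′ minus 5′ difference, and -0.18 without WT TCDD replicate 2. With that actin difference as a covariate it was -0.01. The part of RNA quality in the shift was not tested beyond these values.

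In KO cells the 48 genes had a median TCDD difference of 0.02 against 0.03 over all probe sets, with 27 above and 20 below 0. Limma called 0 genes, and 0 had an unadjusted p under 0.05, where 1.69% of all probe sets did. Both TCDD arrays were above both DMSO arrays for 13 genes, 27.1% against 20.5%, and below them for Rps3a1 and Rps7, against 7.14%. The largest values were Rpl37 at 0.48, Rps25 at 0.42, Rps15 at 0.39 and Rpl7l1 at 0.39. On the lower side were Rps3a1 at -0.34, Rpl22l1 at -0.30, Rpl3l at -0.24 and Rps4l at -0.23.

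The difference of the TCDD effects, KO minus WT, was then tested as an interaction. Limma called 0 of the 48 genes and no probe set of the array, while 4 genes had an unadjusted p under 0.05, 8.33% against 2.78%. These were Rps19 at 0.64 (SE 0.19), Rps14 at 0.59 (SE 0.21), Rplp0 at 0.55 (SE 0.20) and Rpl7l1 at 0.69 (SE 0.26), all with an adjusted p of 0.998 in limma. Rps14 read 12.94 and 12.94 with DMSO and 12.71 and 12.61 with TCDD in WT, and 13.09 and 12.72 with DMSO and 13.28 and 13.15 with TCDD in KO. Rpl37 had the largest interaction, 1.1, with an SE of 0.63, and Rpl3l, Rps4l and Rps4x the lowest, at -0.32, -0.31 and -0.20. The median over the 48 genes was 0.21 against 0.01 over all probe sets, with 33 above 0. Over the 58 other bright probe sets it was 0.14, with 46 above 0.

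**Figure D5:**
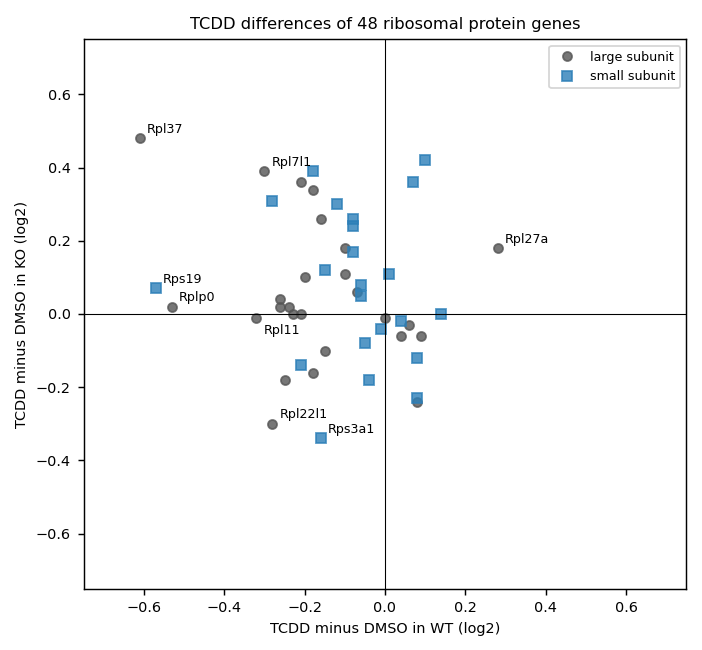
TCDD minus DMSO difference on the log2 scale in WT (horizontal axis) and in KO (vertical axis), 1 point per gene, 2 arrays against 2 in each genotype. Rps19, Rplp0 and Rpl37 lie on the lower side in WT, and none of the differences on either axis passed the adjusted test.

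Genes that make or control ribosomes were described from lists of the same pathway, in KO against WT and with the same fit. Of these lists, 3 held 1 called gene each, where 2.79% of all probe sets were called, and such single calls are not read as results about the lists. Among 63 ribosome biogenesis genes the median was -0.04, from -1.49 (Rrs1) to 0.69 (Rrp1), and only Imp4 was called. Rrs1 had a limma adjusted p of 0.103, with a difference of -0.41 within number 1 and -2.56 within number 2. Imp4, a component of the U3 particle that processes small-subunit RNA, rose to 8.46 ± 0.21 from 7.96 ± 0.01 (SD, n = 4), a difference of 0.50 (adjusted p = 0.0464). Among 17 other genes with TOP messages the median was 0.00, and Eif3e, a subunit of the initiation factor eIF3, fell by 1.03 (11.44 ± 0.27 against 12.47 ± 0.34, adjusted p = 0.0353). Among 15 genes of mTOR and TOP control the median was -0.11. Eif4ebp2, an inhibitor, switched off by mTOR, of the cap-binding protein eIF4E, fell by 0.67 (adjusted p = 0.04997). Without both WT arrays numbered 2 none of the 3 was called (adjusted p = 0.211 for Imp4, 0.166 for Eif3e and 0.238 for Eif4ebp2), and each call was also lost on leaving out WT DMSO replicate 2, WT TCDD replicate 2 or either KO TCDD array. Leaving out WT DMSO replicate 1, WT TCDD replicate 1 or KO DMSO replicate 1 ended the calls of Imp4 and Eif4ebp2, and leaving out KO DMSO replicate 2 those of Eif3e and Eif4ebp2. Eif4ebp2 lay at the threshold, and other settings of the fit ended its call as well (adjusted p = 0.05004 to 0.107).

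The other lists held no called gene. The 14 genes of RNA polymerase I and ribosomal RNA transcription had a median of 0.03, from -0.68 to 0.56. The 8 genes of the p53 response to ribosomal stress also had a median of 0.03, with 4 positive and 4 negative. They ran from -0.69 (Zmat3) to 1.74 (Pmaip1, limma adjusted p = 0.088). The 13 chaperones and importers of ribosomal proteins had a median of -0.26. The 11 transcription factors of these genes had a median of -0.43, from -1.17 (Sp1) to 0.77 (Mxd4), with 9 negative and 2 positive. Among them Myc was at 5.76 ± 0.24 in KO and 6.62 ± 0.59 in WT (SD, n = 4), and its groups overlapped (KO up to 6.09, WT from 6.01). Both medians came more from the arrays numbered 2. That of the factors was -0.08 within number 1 and -0.78 within number 2, and that of the chaperones and importers 0.03 and -0.19. The other TOP genes likewise had medians of 0.32 and -0.26. Fau, whose product is a ubiquitin-like protein fused to a small-subunit protein, was at 12.20 ± 0.10 against 11.82 ± 0.16, a difference of 0.38 that was not called. For TCDD within either genotype and for the interaction, limma called 0 genes of any of these lists.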

How the data were processed

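The deposited table holds log2 values that the authors, per the submitters' processing notes, computed with RMA, background-corrected, normalised between arrays and summarised per probe set. The notes name affy as the package, and versions and a genome build for the array are not given in the sources used here. Samples were grouped by title. Of 22690 probe sets, 64 controls were left out and 22626 tested; 20380 had 1 gene symbol, 691 several and 1555 none in the array annotation used here. All 48 symbols matched the RefSeq gene table, and promoter windows came from RefSeq (GRCm38.p6).

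Limma 3.58.1 in R 4.3.3 (lmFit, eBayes) compared KO with WT over 8 arrays as 4 against 4, and TCDD with DMSO in each genotype, and their interaction, in a model of 4 group means, in which each TCDD group has 2 arrays. P-values were adjusted by the Benjamini-Hochberg method over all probe sets tested, and an adjusted p under 0.05 was called. The exact permutation test was two-sided. SEs are limma's. Pipelines were tested on simulated data. Precision is limited by the number of arrays. Replicates are pools, and p-values measure only the spread between these arrays.

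The genes and lists were chosen with earlier results of these data known. Named were genes called in any comparison, the 8 largest differences per direction for KO against WT, the 4 largest TCDD differences per direction and genotype, the 3 largest interactions per direction, the 3 highest and 3 lowest by level, a set by role, each paralogue with its namesake, and called genes of the other lists (at most 4 per direction). Rps14 and Rpl7l1 in the interaction, Rpl8, Rps26 and the genes low on both TCDD arrays in WT or in KO, and the cell type markers given with values, were named after their values were seen. So were Sp1, Mxd4, Zmat3, Pmaip1, Rrs1 and Rrp1, as the ends of their lists. Myc and Fau were named outside these rules. Comparisons of protein sequences were not made here. Alternatives were another scaling, a level filter, other variance settings, array weights, the actin covariate, the replicate number as a block, other probe set choices, and leaving out arrays.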

Additional observations from a re-analysis of the deposited data

Results flagged for a closer look

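In 96 groups of 4 arrays (48 genes in KO and in WT), the highest or lowest array was far from the other 3 in 6, all in KO. Such a flag does not mean a large log2 gap, as Rpl35 below shows. Chance alone gives about 1 in 20 where the 4 arrays are alike, and the WT arrays numbered 1 and 2 differed for many genes. KO DMSO replicate 2 was the distant array for 4 of the 6. There Rpl14 read 6.80 against 7.43 to 7.5, Rps6 8.16 against 8.76 to 8.84, Rps19 12.97 against 13.08 to 13.10, and Rpl3l, the higher one, 5.73 against 5.12 to 5.22. On KO DMSO replicate 1 Rps4x read 13.47 against 13.22 to 13.26. On KO TCDD replicate 2 Rpl35 read 13.32 while the others read 13.34. Causes were not tested.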

How the results depend on the processing

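For KO against WT, 1 gene was called higher and 1 lower. Leaving out 1 array gave 0 to 2 higher and 0 lower (0 without WT DMSO replicate 2 or either KO TCDD array, 2 without KO DMSO replicate 1). There were 0 higher and 0 lower without both WT arrays numbered 2, with 4 group means, with DMSO arrays alone and with TCDD arrays alone. There were 0 higher when a gene's probe sets were averaged, and 0 lower with median centring or with eBayes trend and robust. Array weights gave 2 higher, and the actin 3′/5′ covariate 4 higher (Rps9, Rplp0, Rps10 and Rpl41) and 2 lower (Rps28 and Rpl22l1). With the replicate number as a block, 2 were called lower, Rps28 (adjusted p = 0.0476) and Rpl22 (0.0465). Same-numbered WT arrays deviated together between DMSO and TCDD (r = 0.6261), while the other pairs of groups gave r from -0.2933 to 0.2157. The numbers were not taken as pairs, so the main TCDD comparison in WT leaves that shared deviation in its spread. With the number as a block, limma again called 0 genes for TCDD in WT. The KO minus WT differences within number 1 or number 2 describe the arrays and do not rest on matched KO and WT pools. The median over the 48 genes for TCDD in WT was -0.01 with the actin covariate and -0.18 to -0.03 on leaving out 1 array. The median interaction was 0.10 with quantile normalization, 0.09 with the actin covariate and 0.04 to 0.25 on leaving out 1 array. The other medians kept within their spread. Of 987 recomputed values of 53 named results, 34, in 14 results that were never called, changed sign. Leaving out 1 array gave, for KO minus WT, -0.14 to 0.09 for Rpl7, -0.05 to 0.20 for Rps19, -0.04 to 0.31 for Rps27l and -0.15 to 0.01 for Rpl11. For TCDD in WT it gave -0.28 to 0.46 for Rplp2, -0.26 to 0.82 for Rpl27a, -0.45 to 0.66 for Rps25 and -0.10 to 0.38 for Rps18. For TCDD in KO it gave -0.64 to 0.04 for Rpl22l1, -0.55 to 0.06 for Rpl3l and -0.60 to 0.14 for Rps4l, and for the interaction -0.68 to 0.06 for Rps4l. With DMSO arrays alone, KO minus WT was -0.04 for Rpl7, -0.23 for Rps19, -0.08 for Rps27l and -0.12 for Rpl37, and with TCDD arrays alone 0.08 for Rpl11. It was -0.11 for Rpl7 with quantile normalization, and with array weights -0.02 for Rpl7 and -0.01 for Rps19. Without both WT arrays numbered 2, TCDD in WT was -0.07 for Rplp2 and -0.06 for Rps18, and the interaction 0.10 for Rps4l and 0.04 for Rps4x. With the actin covariate, TCDD in WT was -0.35 for Rps25. Among the called genes of the other lists, Eif4ebp2 was not called with median centring (adjusted p = 0.0623), trend and robust (0.0621), array weights (0.0667), averaged probe sets (0.05004) or 4 group means (0.107). Imp4 was not called with trend and robust (0.0852) or 4 group means (0.072), nor Eif3e with 4 group means (0.0746), and none of the 3 with DMSO or TCDD arrays alone. The causes were not tested. Low signal limits what can be read from Rps4l, Rpl39l and Rpl3l. Rpl12 (7.43 in KO, 8.12 in WT), Rpl27a (7.82 and 8.38), Rps27 and Rpl39 were also among the 10 genes with a mean under 8.5.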
